A study of Mus musculus with 20 samples.

Results

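The core circadian clock genes were taken as the rows whose gene symbol is Arntl, Npas2, Clock, Per1, Per2, Cry1, Dbp, Tef, Nr1d1 or Nr1d2, and each of these symbols had 1 row in every count table. They are 10 of the 37681 genes listed. The RNA came from the livers of wild-type male C57/BL6 mice (C57/B6J in the protocol text) aged 12 weeks, injected intraperitoneally with IL-1β at 20 µg/kg (n = 5, labelled ILB_9577, ILB_9578, ILB_9579, ILB_9582 and ILB_9583) or with saline (n = 5, referred to as untreated, labelled UNT_9574, UNT_9575, UNT_9576, UNT_9580 and UNT_9584) and collected 4 hours later. Each liver RNA was sequenced on an Illumina HiSeq and on an Ion Torrent Proton, and the reads of each platform were aligned with STAR, GSNAP or STAR followed by Bowtie2, which gave 6 tables of 10 libraries. IL-1β is a signaling protein of the innate immune system. The clock hour of injection and collection, the lighting and the feeding of the mice are not given in the sources used here, and all 10 mice were collected at a single interval after treatment, so rhythm itself was not measured.

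The circadian clock is a feedback loop of transcription that runs in nearly every cell and sets the daily timing of liver metabolism. ARNTL (also called BMAL1) pairs with CLOCK or with its relative NPAS2 and activates genes that carry an E-box, among them the Per, Cry, Nr1d and Dbp genes. PER and CRY proteins return to block that pair, and NR1D1 and NR1D2 (REV-ERBα and REV-ERBβ) repress Arntl through a second DNA element, the RORE, which the ROR receptors activate. DBP and TEF are transcription factors of the PAR bZIP family that bind D-box elements and pass the rhythm on to genes of metabolism.

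These elements can be read in the promoters. RefSeq start-site windows on GRCm38.p6, from 250 bases before to 50 bases after each start, were at hand for 9 of the 10 genes (14 windows, none for Per2). They were searched on both strands for the E-box (CACGTG), a variant E-box (CACGTT), D-boxes (TTATGTAA and TTACGTAA), ROREs (TAGGTCA and TGGGTCA) and the cAMP response element (TGACGTCA). The E-box is present in 7.15% of all 32851 windows, the variant E-box in 4.68% and the RORE form TAGGTCA in 2.61%. The E-box was found in windows of Per1, Cry1 and Tef, the variant E-box in Cry1 and Nr1d1, and the RORE in Arntl. The stretches that hold these matches are shown 5′ to 3′ because they place the E-box beside 3 genes that moved in different directions (Per1, Cry1 and Tef) and the RORE in the gene that NR1D1 represses. For Tef, 1 of its 2 windows with an E-box is shown, and the other holds it 127 bases before another start and lies wholly in annotated exons. Capitals mark the match, and AACGTG is CACGTT read on the other strand. Each window matched NCBIM37, the build of the count tables, at 1 place. A match of letters is a description and not evidence of binding.
Per1, chr11:68912201-68912449 (+), NCBIM37, E-box 166 bases before the start, within the gene but outside its annotated exons: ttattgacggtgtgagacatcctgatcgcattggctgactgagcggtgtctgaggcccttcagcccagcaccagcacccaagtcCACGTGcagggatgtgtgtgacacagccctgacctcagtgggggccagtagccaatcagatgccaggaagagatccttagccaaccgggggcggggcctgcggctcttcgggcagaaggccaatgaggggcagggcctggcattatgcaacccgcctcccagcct
Cry1, chr10:84647800-84648049 (-), NCBIM37, E-box 60 bases and variant E-box 79 bases before the start, directly upstream of the gene: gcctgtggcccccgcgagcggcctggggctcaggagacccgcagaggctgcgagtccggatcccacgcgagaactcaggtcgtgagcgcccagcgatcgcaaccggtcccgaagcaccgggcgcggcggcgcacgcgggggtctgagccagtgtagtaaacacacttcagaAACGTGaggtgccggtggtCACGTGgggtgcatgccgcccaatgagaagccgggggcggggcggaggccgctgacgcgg
Tef, chr15:81641594-81641843 (+), NCBIM37, E-box 138 bases before an internal start of the gene: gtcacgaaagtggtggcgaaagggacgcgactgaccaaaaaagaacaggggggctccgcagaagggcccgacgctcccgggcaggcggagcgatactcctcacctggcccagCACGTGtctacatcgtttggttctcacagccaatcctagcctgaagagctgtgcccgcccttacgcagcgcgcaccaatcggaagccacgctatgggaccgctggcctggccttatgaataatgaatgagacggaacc
Nr1d1, chr11:98636692-98636941 (-), NCBIM37, variant E-box 28 bases before the start, upstream of the gene: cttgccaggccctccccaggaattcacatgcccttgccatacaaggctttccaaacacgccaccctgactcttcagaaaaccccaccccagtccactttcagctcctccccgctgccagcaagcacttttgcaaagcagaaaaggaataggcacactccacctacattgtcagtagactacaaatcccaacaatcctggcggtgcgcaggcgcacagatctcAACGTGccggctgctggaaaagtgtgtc
Arntl, chr7:120351042-120351071 (+), NCBIM37, RORE from base 31 after a start, in an untranslated exon: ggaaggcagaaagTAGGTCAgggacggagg

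The values are whole numbers of reads per gene, which the authors had re-sampled to a common depth within each table. Totals ranged from 10568530 to 12008799 reads over the Illumina libraries, and from 12199528 to 16439683 over those of Ion Torrent. The Illumina table aligned with STAR was the main table and the other 5 served as repeats of the same mice, not as new animals. All 5 hepatocyte markers were detected, and their summed level was 66484 to 73928 reads per 1000000 in treated and 83084 to 102274 in untreated libraries. Neutrophil markers moved with the treatment. The summed level of the 9 listed was 38.2 to 88.4 reads per 1000000 in treated against 0.80 to 2.83 in untreated libraries. All 5 that could be tested were higher with IL-1β. In the Illumina STAR table, Ngp and Cxcr2 passed the filter of 5 reads in 5 libraries through the treated mice alone. S100a8 and S100a9 would not have passed it there through the untreated mice alone. Ltf, with 0 reads over the untreated mice of that table, did not pass there and was tested because it passed in 2 other tables. The count of 5 higher was thus set in part by the filter and is not read as a result. Elane, not tested, had 0 reads over the treated and 4 over the untreated mice of that table. The summed level of the 5 endothelial markers was 65.9 to 118 against 105 to 156 reads per 1000000, that of the 7 Kupffer cell and macrophage markers 72.5 to 169 against 130 to 226, that of the 5 stellate cell markers 52.3 to 94.7 against 82.0 to 122, that of the 6 lymphocyte markers 0.906 to 1.98 against 1.33 to 3.33 and that of the 4 cholangiocyte markers 9.06 to 14.7 against 4.37 to 7.08. No marker of the 7 lists was at 0 in every library. The sums hide markers that moved in opposite directions, given here as mean reads in treated against untreated mice of the Illumina STAR table. Hnf4a was at 14438 against 7884 but Alb at 554319 against 903902. Lyve1 was at 238 against 95.8 but Kdr at 116 against 422, and Marco at 149 against 37.4 but Vsig4 at 83.6 against 178. Of the cholangiocyte markers, Sox9 was at 75.4 against 30 and Krt19 at 10.2 against 10.2. The part of such shifts in the results on clock genes was not tested. In bulk liver a change in the number of cells of a type cannot be told apart from a change in the RNA of single marker genes. The Ion Torrent library of untreated mouse UNT_9584 stood apart. Across genes, its deviations from the treatment mean correlated with those of the Illumina library of the same mouse at 0.246, against 0.535 to 0.706 for the other 9 mice, so Ion Torrent values are also given without it where they moved.

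The clock genes did not move as a block after IL-1β. Of the 10, Arntl and Per1 rose, and Per2, Cry1, Dbp and Tef fell. Clock, Nr1d1 and Nr1d2 did not pass the test, and Npas2 was too low to be tested. Thus 6 of the 9 genes fitted were called in the Illumina STAR table (edgeR's quasi-likelihood test, Benjamini-Hochberg adjusted p below 0.05 over 15578 genes), 2 higher and 4 lower. The treatment changed a large part of the liver transcriptome, and 45.7% of all genes tested were called, 22.7% higher and 22.9% lower. Without TMM scaling the log2 fold changes of the members were lower by 0.105 to 0.131, and 2746 genes were higher and 4335 lower in place of 3541 and 3575, with the same 6 members called in the same directions. Against that share, a count of 6 in 9 is not read as a property of the clock genes, and the interest lies in which genes moved in which direction. The median log2 fold change of the 9 was -0.24, against 0 over all genes tested.

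**Figure D1:**
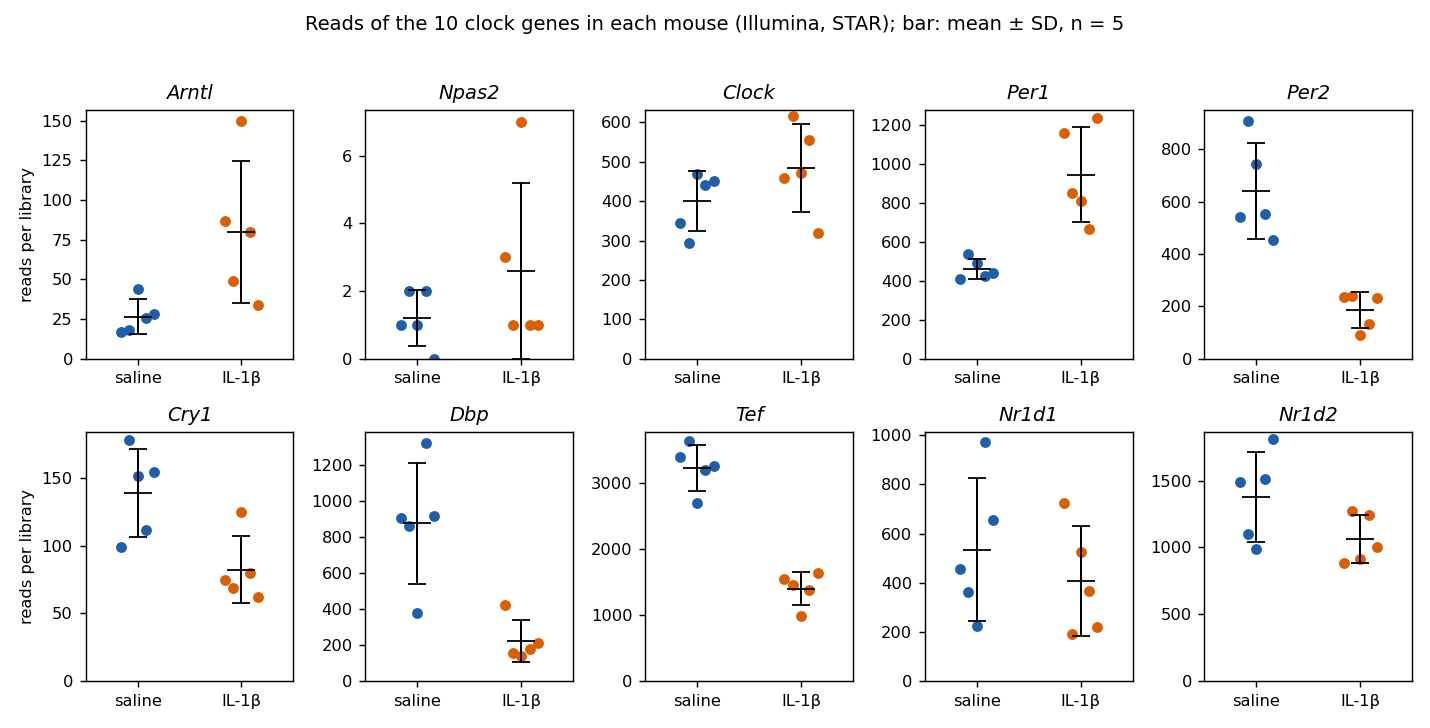
Reads per library (y axis, linear from 0) of the 10 clock genes in the Illumina STAR table for the 5 saline and 5 IL-1β mice, each dot a mouse, with bars for the mean ± SD (n = 5). The treated and untreated mice separate fully for Per1, Per2 and Tef and overlap for the other 7 genes.

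In untreated livers, the 10 genes spanned a wide range of expression. Levels are given here as reads per kilobase of exon per 1000000 reads, a scale that corrects for gene length, and are those of the Illumina STAR table unless stated. Tef was highest at 35.8 ± 3.91 (SD, n = 5), followed by Dbp at 26.1 ± 10.4, Nr1d2 at 24.2 ± 6.73 and Nr1d1 at 15.1 ± 8.57. Below these stood Per2 at 9.51 ± 2.53, Per1 at 7.13 ± 0.778, Cry1 at 4.03 ± 0.981 and Clock at 3.97 ± 0.866. Arntl was low at 0.796 ± 0.326, and Npas2 at 0.0216 ± 0.0153 was the lowest. Neighbors in this order from Tef to Per1, and Cry1 and Clock, differed by less than the sum of their SDs, while Per1 and Cry1, Clock and Arntl, and Arntl and Npas2 differed by more. After IL-1β the order in the Illumina STAR table was different: Nr1d2 at 20.9 ± 3.72 and Tef at 17.5 ± 3.16 led, and Per1 at 16.5 ± 4.21 stood next, above Nr1d1 at 12.7 ± 6.71, Dbp at 7.38 ± 3.60 and Clock at 5.39 ± 1.25. Per2 at 3.14 ± 1.16, Arntl at 2.69 ± 1.51 and Cry1 at 2.69 ± 0.825 then lay together, with Npas2 last at 0.0534 ± 0.0540. The order depended on the platform. In untreated livers of the Ion Torrent STAR table, Nr1d1 was at 25.6 ± 14, Nr1d2 at 11.9 ± 3.02 and Clock at 2.33 ± 0.515. After IL-1β, Per1 was highest there at 20.5 ± 7.17, followed by Tef at 15.9 ± 2.78, Nr1d1 at 15.6 ± 8.14 and Nr1d2 at 11.2 ± 2.70. On both platforms Per1 and Per2 differed by less than the sum of their SDs in untreated livers, and Per1 lay above Per2 in treated ones by more than that sum.

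Arntl (chromosome 7, 120350979 to 120457636), the obligate activator of the loop, rose. The treated mice had 87, 49, 150, 80 and 34 reads in the Illumina STAR table, in the order in which the mice are listed above, and the untreated mice had 17, 18, 44, 26 and 28. Treated mouse ILB_9583 lay below untreated mouse UNT_9576, so the groups overlapped in that pair of mice alone. It rose by 1.76 on the log2 scale (SE 0.36, edgeR adjusted p = 0.00105), or 3.38-fold, and it lay between 1.53 and 1.76 over the 6 tables with a call in each. Without any 1 mouse it was 1.39 to 2.0 and always called. Arntl had few reads per library. It also varied much among mice of a group: its biological coefficient of variation in the edgeR fit was 37.2%, against a median of 16.6% over all genes.

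Clock (chromosome 5, 76639992 to 76733817), the partner of ARNTL, lay at the threshold. Its reads were 460, 615, 471, 555 and 318 in treated and 345, 293, 470, 442 and 450 in untreated mice, and the groups overlapped widely. The log2 fold change was 0.44 (SE 0.18, edgeR adjusted p = 0.0506). It was called in the Illumina GSNAP table (edgeR adjusted p = 0.0483), with DESeq2 (0.0462) and without mouse ILB_9583 (0.0124), UNT_9576 (0.0457) or UNT_9584 (0.0359), and in none of the Ion Torrent tables, where the adjusted p was 0.122 to 0.183.

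Npas2 (chromosome 1, 39250576 to 39420079), the alternative partner of ARNTL, was nearly absent from these livers. The treated mice had 3, 1, 7, 1 and 1 reads and the untreated mice 1, 2, 1, 2 and 0 in the Illumina STAR table. No table gave it 5 reads in 5 libraries. Treated mouse ILB_9579 had the most Npas2 reads in all 6 tables, 7 in each Illumina table and 12 to 17 in the Ion Torrent tables, and it was also the mouse with the most Arntl reads in the Illumina STAR table. With no filter on low counts, the log2 fold change of Npas2 was 1.21 (SE 0.73, edgeR adjusted p = 0.217), so no difference was detectable at this depth.

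Among the repressors that act through PER and CRY, the members of the Per family went opposite ways. Per1 (chromosome 11, 68908719 to 68923462), a period gene also known as an immediate early gene, rose. Its reads were 1162, 853, 811, 666 and 1236 in treated and 412, 538, 490, 423 and 440 in untreated mice. Every treated mouse stood above every untreated mouse, and the log2 fold change was 1.21 (SE 0.15, edgeR adjusted p = 1.38e-05), or 2.32-fold. In the Ion Torrent STAR table the log2 fold change was 0.99, with 1173 reads in untreated mouse UNT_9584 against 529 to 859 in the other 4 untreated mice. Without that mouse it was 1.21 to 1.23 over the 3 Ion Torrent tables.

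Per2 (chromosome 1, 93312561 to 93355907), its paralog in the same repressor complex, fell. The treated mice had 237, 240, 92, 131 and 233 reads and the untreated mice 541, 908, 745, 553 and 454. Every treated mouse was below every untreated mouse in all 6 tables. Its log2 fold change was -1.60 (SE 0.24, edgeR adjusted p = 7.58e-05), which is 3.03-fold lower, and it stayed within -1.66 and -1.56 over the 6 tables.

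The opposite movement of the Per genes can be read as their ratio within a library, which is free of any scaling between libraries. The log2 ratio of Per1 to Per2 reads was 2.29, 1.83, 3.13, 2.34 and 2.40 in the treated mice and -0.39, -0.75, -0.60, -0.39 and -0.045 in the untreated mice of the Illumina STAR table. Untreated livers held slightly fewer Per1 than Per2 reads, and every treated liver held over 3-fold more Per1 than Per2 reads. The ratio rose by 2.83 (SE 0.24) on the log2 scale, with a two-sided exact permutation p = 0.00794, the smallest that 5 mice against 5 allow, and 0.0476 after adjustment over the 6 gene pairs tested. Since the groups overlapped for neither gene in that table, the ratio had to separate there, so its p adds nothing to the tests of the single genes. It rose by 2.59 in the Ion Torrent STAR table and by 2.65 to 2.97 without any 1 mouse.

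Cry1 (chromosome 10, 84594447 to 84647799), a cryptochrome and the strongest repressor partner of PER, fell less. It had 75, 69, 125, 80 and 62 reads in treated and 99, 178, 152, 112 and 155 in untreated mice, and treated mouse ILB_9579 lay within the untreated range. Its log2 fold change was -0.58 (SE 0.21, edgeR adjusted p = 0.0325). The call was lost with limma-voom (0.0530), with the rank test of the study's methods (0.0722) and without any 1 of 7 mice (ILB_9577, ILB_9578, ILB_9582, ILB_9583, UNT_9575, UNT_9576 and UNT_9584, adjusted p up to 0.0860). In the Ion Torrent STAR table the groups did not overlap (96 to 142 reads in treated against 147 to 276 in untreated mice), with a log2 fold change of -0.75 (edgeR adjusted p = 0.00472). The ratio of Cry1 to Cry2 reads differed by -0.44 (SE 0.31) on the log2 scale, and the exact two-sided permutation p was 0.214.

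The PAR bZIP output factors fell together. Dbp (chromosome 7, 52960458 to 52965525), among the most strongly rhythmic transcripts of the liver, had 422, 158, 140, 178 and 213 reads in treated and 909, 861, 377, 1323 and 920 in untreated mice. The overlap came from treated mouse ILB_9577, with 422 reads, and untreated mouse UNT_9576, with 377. The log2 fold change was -1.82 (SE 0.31, edgeR adjusted p = 0.000232), which is 3.53-fold lower, and -2.11 to -1.82 over the 6 tables. An antisense gene, Sphk2, shares 491 bases with the exons of Dbp (16.7% of them), and whether the counting used strand is not given in the sources used here, so reads of that stretch cannot be told apart. Sphk2 itself had a log2 fold change of 0.31 (SE 0.19, edgeR adjusted p = 0.198).

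Tef (chromosome 15, 81632851 to 81657291), the second PAR bZIP factor, had 1536, 1458, 978, 1378 and 1635 reads in treated and 3388, 3631, 2688, 3186 and 3254 in untreated mice. The groups did not overlap in any of the 6 tables. Its log2 fold change was -1.03 (SE 0.13, edgeR adjusted p = 1.37e-05), or 2.05-fold lower, and it was the steadiest value of all members, at -1.04 to -1.03 over the 6 tables. Tef shares 193 exonic bases (2.45%) with the antisense long noncoding RNA Gm17597 (log2 fold change -0.72, SE 0.39, edgeR adjusted p = 0.241). Dbp fell by more than Tef in the fits, but the log2 ratio of Dbp to Tef reads differed by -0.77 (SE 0.34) and missed the threshold (exact two-sided permutation p = 0.0714, adjusted p = 0.143). In the Ion Torrent STAR table the difference was -1.04 (exact p = 0.0238, adjusted p = 0.0476), and without treated mouse ILB_9577 it was -0.99 in the Illumina STAR table, with the same adjusted p.

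The RORE repressors did not pass the test. Nr1d1 (chromosome 11, 98629246 to 98636647), the nuclear receptor that represses Arntl, had 726, 192, 526, 367 and 220 reads in treated and 454, 363, 223, 973 and 654 in untreated mice. Within each group the highest mouse had over 3-fold the reads of the lowest, and the groups overlapped nearly fully. The log2 fold change was -0.24 (SE 0.38, edgeR adjusted p = 0.659), and its biological coefficient of variation of 42.1% was the highest of the clock genes. Without untreated mouse UNT_9580 the value changed sign to 0.099. In the Ion Torrent tables it was -0.73 to -0.71, and -0.44 to -0.41 without mouse UNT_9584, with no call in either case. The antisense gene Thra, which encodes a thyroid hormone receptor, shares 263 bases with the exons of Nr1d1 (8.42%). Thra fell by 0.63 on the log2 scale (SE 0.21, edgeR adjusted p = 0.0236), with a call lost without any 1 of 3 mice (ILB_9578, ILB_9583 and UNT_9576).

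Nr1d2 (chromosome 14, 19036568 to 19071641), the close relative of Nr1d1, had 886, 1271, 917, 1240 and 1000 reads in treated and 1492, 1101, 985, 1511 and 1816 in untreated mice. The lower treated mice fell below the untreated range while the higher ones lay within it. The log2 fold change was -0.21 (SE 0.17, edgeR adjusted p = 0.361). The ratio of Nr1d1 to Nr1d2 reads differed by -0.037 (SE 0.51) on the log2 scale, with an exact two-sided permutation p = 0.952, an error too wide to say that the genes moved alike.

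Arntl rose while its repressor Nr1d1 was not called, and their ratio was tested within libraries. The log2 ratio of Arntl to Nr1d1 reads was -3.05, -1.95, -1.80, -2.18 and -2.66 in treated and -4.66, -4.26, -2.32, -5.17 and -4.50 in untreated mice. Untreated mouse UNT_9576 lay within the treated range. The difference was 1.85 (SE 0.54, exact two-sided permutation p = 0.0238, adjusted p = 0.0714). The adjusted p was 0.0476 in the Ion Torrent STAR table (difference 2.03) and without treated mouse ILB_9577, and 0.0238 without untreated mouse UNT_9576 (difference 2.32). The remaining pair, Npas2 to Clock, differed by 0.30 (SE 0.57, exact p = 0.619) on at most 7 Npas2 reads. Of the 6 pairs, only Per1 to Per2 passed the adjusted threshold in the Illumina STAR table.

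**Figure D2:**
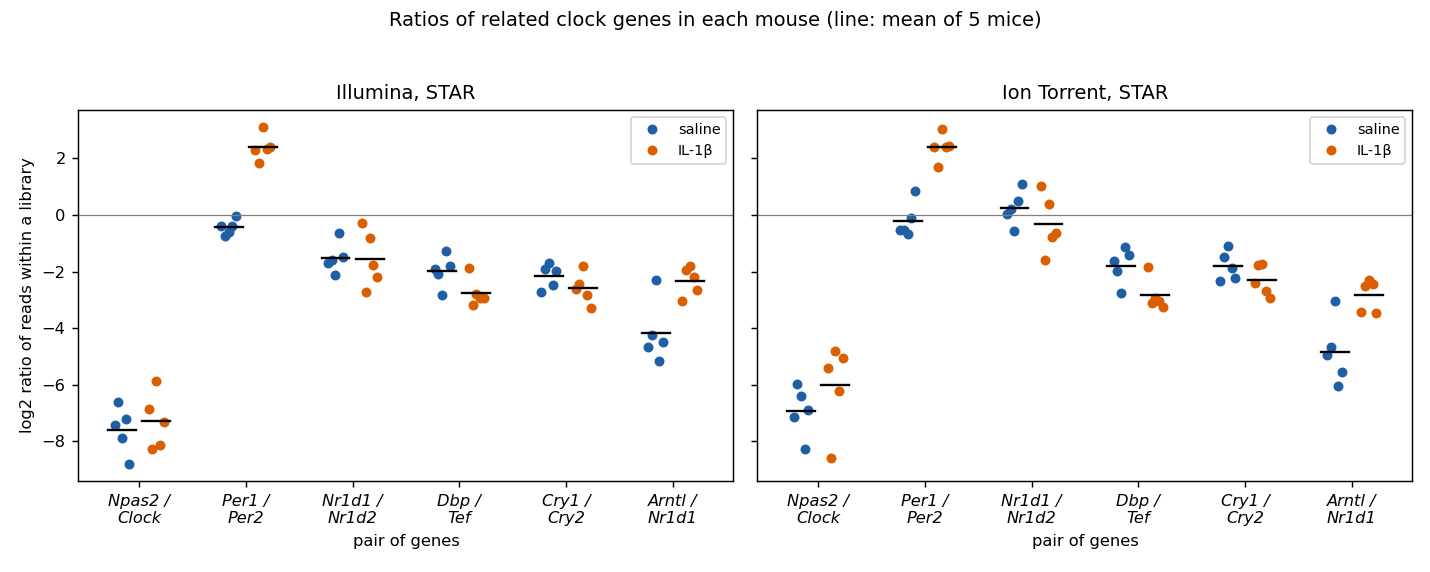
Log2 ratio of the reads of paired genes within each library (y axis) for 6 pairs (x axis), in the STAR tables of both platforms, with a dot for each mouse and a line at the mean of 5 mice. The Per1 to Per2 ratio separates the treatments on both platforms, by 2.83 for Illumina and by 2.59 for Ion Torrent.

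The 6 tables gave the same directions for each of the 9 genes fitted. The same 6 genes were called in each table, and Clock was called in addition in the Illumina GSNAP table. The share of all genes called was 47.5% in that table, 47.4% with Illumina STAR + Bowtie2, and on Ion Torrent 42.1% with STAR, 46.4% with GSNAP and 46.7% with STAR + Bowtie2. The groups did not overlap for 3 of the 10 clock genes in each Illumina table (Per1, Per2 and Tef), where 33.6% of all genes tested did not overlap with STAR, 35% with GSNAP and 34.6% with STAR + Bowtie2. In the Ion Torrent tables the genes without overlap were Per2, Cry1 and Tef with STAR and GSNAP (background 31.3% and 33.8%), and Per2 and Tef with STAR + Bowtie2 (33.7%).

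**Figure D3:**
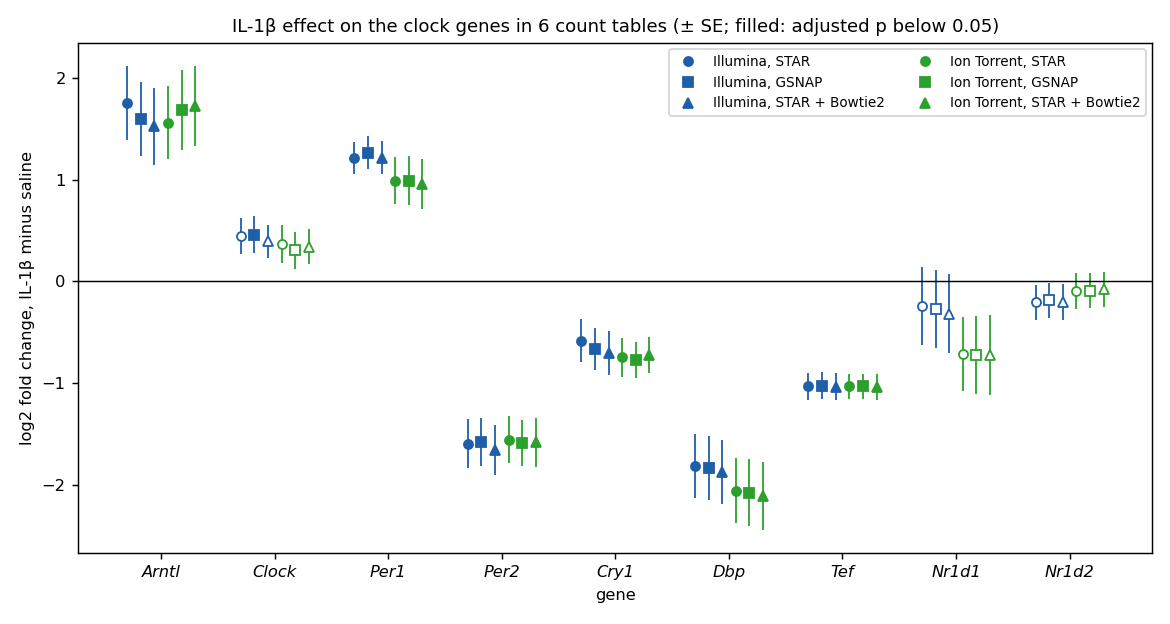
Log2 fold change of IL-1β against saline (y axis, ± SE) of the 9 clock genes fitted (x axis) in the 6 tables, blue for Illumina and green for Ion Torrent, with filled symbols for an edgeR adjusted p below 0.05. The platforms lie farthest apart for Nr1d1, at -0.32 to -0.24 for Illumina and -0.73 to -0.71 for Ion Torrent. They lie less far apart for the other genes, among them Per1 (1.21 to 1.27 and 0.96 to 0.99) and Dbp (-1.88 to -1.82 and -2.11 to -2.06).

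Whether the IL-1β effect differed between the platforms was tested with a platform-by-treatment term over the 20 STAR libraries, with the mouse as a block. None of the 9 clock genes had an edgeR adjusted p below 0.05, and 2 had an unadjusted p below 0.05. In all, 1 of 15578 genes was called (0.00642%), and 1090 had an unadjusted p below 0.05. The 2 clock genes with an unadjusted p below 0.05 were Nr1d1 and Dbp. For Nr1d1 the log2 fold change on Ion Torrent minus that on Illumina was -0.45 (SE 0.12, edgeR adjusted p = 0.653). For Dbp the difference was -0.25 (SE 0.10, edgeR adjusted p = 0.696). For Per1 it was -0.18 with all mice (SE 0.14) and -0.00060 (SE 0.079) without mouse UNT_9584. Without the block for the mouse, the differences for Nr1d1 and Dbp were -0.46 (SE 0.60) and -0.23 (SE 0.50), and none of the 9 had an unadjusted p below 0.05.

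The variation among mice of a group was compared between the platforms. For each clock gene fitted, the deviation of a mouse from its treatment mean (log2 normalised read count) was compared between the Illumina and Ion Torrent STAR libraries of the 10 mice. Pearson's correlation was 0.981 for Dbp, 0.967 for Per2, 0.965 for Tef, 0.959 for Nr1d1, 0.904 for Arntl, 0.817 for Clock, 0.811 for Nr1d2, 0.749 for Per1 and 0.714 for Cry1. For Npas2, on few reads, it was 0.335. Both libraries of a mouse come from the same RNA, so these values describe how repeatable the measurement was, and no p is given. The spread of Nr1d1, Arntl and Dbp, the most variable of the 9 genes fitted, was thus largely shared by both libraries of an RNA sample. Untreated mouse UNT_9576 had the lowest Dbp and Nr1d1 and the highest Arntl of the untreated mice in the Illumina STAR table, and treated mouse ILB_9579 had the lowest Dbp, Tef and Per2 and the highest Arntl and Cry1 of the treated mice.

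**Figure D4:**
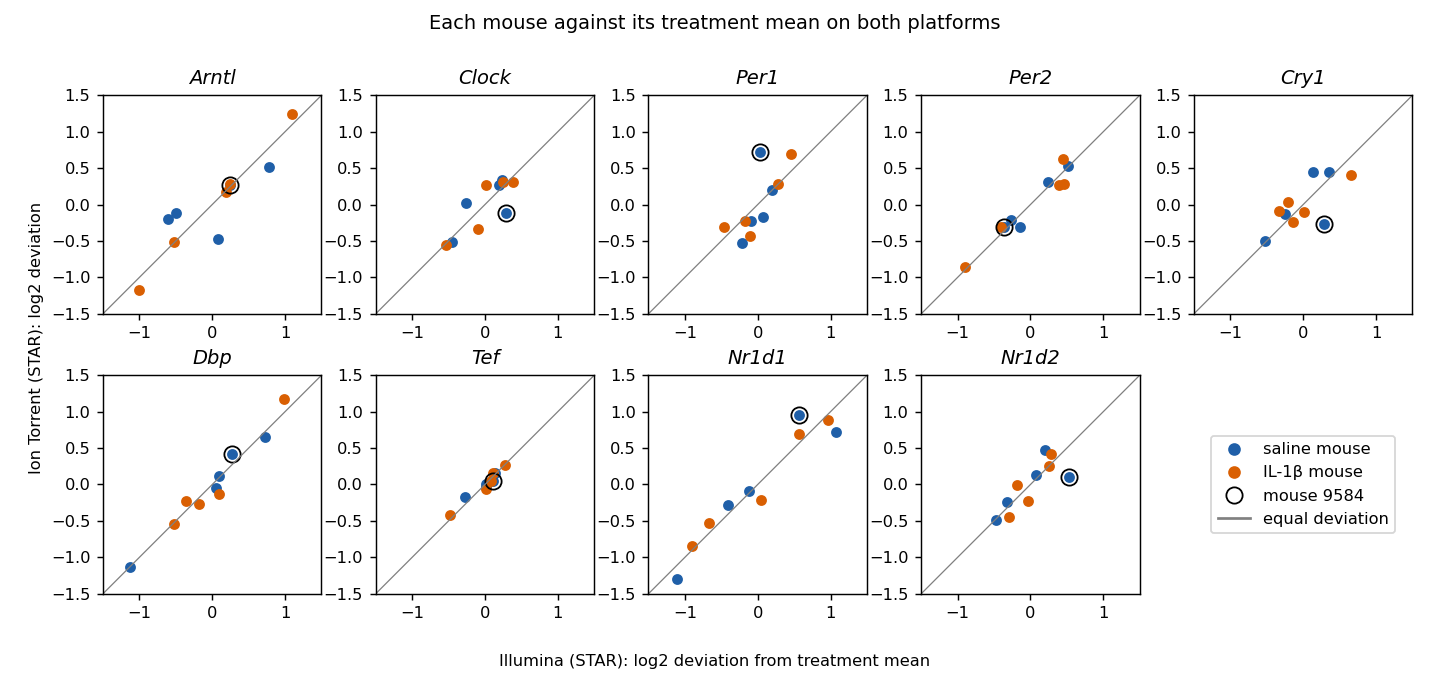
Log2 deviation of each mouse from its treatment mean, on Illumina along the x axis against Ion Torrent along the y axis (STAR tables), for the 9 clock genes fitted, with the 10 mice as dots, mouse UNT_9584 circled and a grey line of equal deviation. Points lie mostly along the line for Dbp, Per2, Tef and Nr1d1. Mouse UNT_9584 lies off it most for Per1 (0.034 on Illumina and 0.73 on Ion Torrent) and Cry1 (0.28 and -0.26), and less for Clock, Nr1d2 and Nr1d1.

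Whether clock genes varied together among mice, apart from the treatment, was tested for all 45 pairs of the 10 genes over the 10 mice (exact permutation of mice within treatment, two-sided). No pair had an adjusted p below 0.05, and 2 had an unadjusted p below 0.05 in the Illumina STAR table, against 7 in the Ion Torrent STAR table. Arntl and Tef deviated in opposite directions, with Pearson's r = -0.84 (exact permutation p = 0.00701, adjusted p = 0.316) and Spearman's rho = -0.52 (exact permutation p = 0.164, adjusted p = 0.640). Without the 2 mice farthest from the median of Arntl, r was -0.62. In the Ion Torrent STAR table, from the same 10 mice, it was -0.80, and -0.28 without the 2 mice farthest there. Dbp and Nr1d1 deviated in the same direction, with r = 0.72 (exact permutation p = 0.0260, adjusted p = 0.517) and rho = 0.62 (exact permutation p = 0.0770, adjusted p = 0.528). That r was 0.48 within treated and 0.92 within untreated mice, fell to 0.46 without the 2 mice farthest from the median of Dbp, and was 0.74 in the Ion Torrent STAR table.

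The genes nearest to the 3 most variable members were sought among the 9278 genes with a mean of at least 50 reads in the Illumina STAR table, by Pearson's correlation of deviations over the 10 mice. These are the highest of many correlations, given as a description with no p. Nearest to Arntl were Ces1d (r = 0.949, 0.851 in the Ion Torrent STAR table), Acly (0.923 and 0.834) and 1300002K09Rik (0.916 and 0.488). Nearest to Nr1d1 were Eepd1 (0.985 and 0.761), Mllt10 (0.941 and 0.563) and Znrf3 (0.935 and 0.529). Dbp had 2810459M11Rik (0.966 and 0.841) and Cops7b (0.926 and 0.954) among its nearest.

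Around the 10 genes, 20 further components of the clock were examined. Of the 19 tested, 3 rose, 6 fell and 10 were not called in the Illumina STAR table, with a median log2 fold change of -0.13. The share called was near the 45.7% of all genes, so the count is not read as a property of the list. Rorb, the ROR receptor of the nervous system, had 0 reads in the 10 libraries, which allows up to 3 reads over a group. Per3, the third period gene, fell most, from 598 ± 50.7 to 72.4 ± 28.3 reads (mean ± SD, n = 5), with a log2 fold change of -2.87 (SE 0.23, edgeR adjusted p = 1.36e-07). The 3 period genes thus had log2 fold changes of 1.21, -1.60 and -2.87.

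Hlf, the third PAR bZIP factor, fell from 872 ± 145 to 158 ± 30.1 reads (log2 fold change -2.29, SE 0.14, edgeR adjusted p = 1.23e-08), in the direction of Dbp and Tef. Nfil3 (E4BP4), the repressor that competes with these factors at the D-box, rose from 239 ± 99.0 to 781 ± 174 reads (log2 fold change 1.89, SE 0.22, edgeR adjusted p = 7.19e-06). All 3 D-box activators were therefore lower and the D-box repressor higher in treated livers.

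Rora, a receptor that activates through the RORE where NR1D1 represses, was not called (log2 fold change -0.31, edgeR adjusted p = 0.0966). Bhlhe40 (DEC1), which represses at the E-box, fell by 0.54 on the log2 scale (edgeR adjusted p = 0.0376), a call lost with limma-voom (0.117) and without any 1 of 5 mice (ILB_9582, ILB_9583, UNT_9575, UNT_9576 and UNT_9584). Among genes that act on the stability of PER and CRY proteins, the F-box gene Fbxl21 had 4, 4, 3, 3 and 1 reads in treated and 13, 14, 26, 8 and 18 in untreated mice (log2 fold change -2.18, SE 0.40, edgeR adjusted p = 0.000433). In the Illumina STAR table it passed the filter of 5 reads in 5 libraries through the untreated mice alone. Its call as lower was thus partly set by the filter. Btrc fell by 0.53 and its relative Fbxw11 rose by 0.45 (edgeR adjusted p = 0.00183 and 0.000998). Csnk1d, a kinase that phosphorylates PER, rose by 0.38 (edgeR adjusted p = 0.00142) and was not called in the Ion Torrent tables, where its adjusted p was 0.0702 to 0.107.

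Of 17 genes known for rhythmic expression in liver, 7 fell, 3 rose and 7 were not called, with a median log2 fold change of -0.24, beside 22.9% lower and 22.7% higher over all genes. The list is described by its members, and nothing particular to rhythmic genes is read from the count. The largest falls were those of Cyp7a1, the rate-limiting enzyme of bile acid synthesis (2452 ± 968 to 82.8 ± 93.6 reads, log2 fold change -4.72, SE 0.60), Nr1i3, the xenobiotic receptor CAR (5318 ± 1361 to 257 ± 65.2, -4.19, SE 0.21), Wee1, a cell cycle kinase and E-box target (103 ± 22.0 to 5.80 ± 2.59, -3.95, SE 0.26), and Usp2, a deubiquitinase (641 ± 147 to 123 ± 53.7, -2.20, SE 0.26). The rises included those of Lpin1, a phosphatidate phosphatase (3664 ± 1650 to 8252 ± 3549 reads, log2 fold change 1.34, SE 0.32), and Alas1, the first enzyme of heme synthesis (6532 ± 3593 to 11607 ± 3550, 1.01, SE 0.29). The edgeR adjusted p of these 6 genes ranged from 1.94e-09 for Nr1i3 to 0.00899 for Alas1. Lpin1 and Alas1 were not called by the rank test (adjusted p = 0.172 and 0.113). The fold changes of Cyp7a1, Nr1i3 and Wee1 lay below that of Dbp, the lowest of the 10 clock genes at -1.82, by more than the SEs.

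Per1 is also known to respond to glucocorticoids, and 6 other genes that respond to them were examined. In the Illumina STAR table, 4 rose, none fell and 2 were not called, beside 22.7% of all genes higher. Those that rose were Tat (log2 fold change 1.51, edgeR adjusted p = 5.71e-05), Sgk1 (1.37, 0.00238), Zbtb16 (1.33, 0.000192) and Fkbp5 (0.97, 6.81e-05). Klf9 had 0.38 (adjusted p = 0.0721) and Tsc22d3 had -0.65 (adjusted p = 0.0866), so the list did not move as 1. The levels of glucocorticoid hormone were not measured here.

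**Figure D5:**
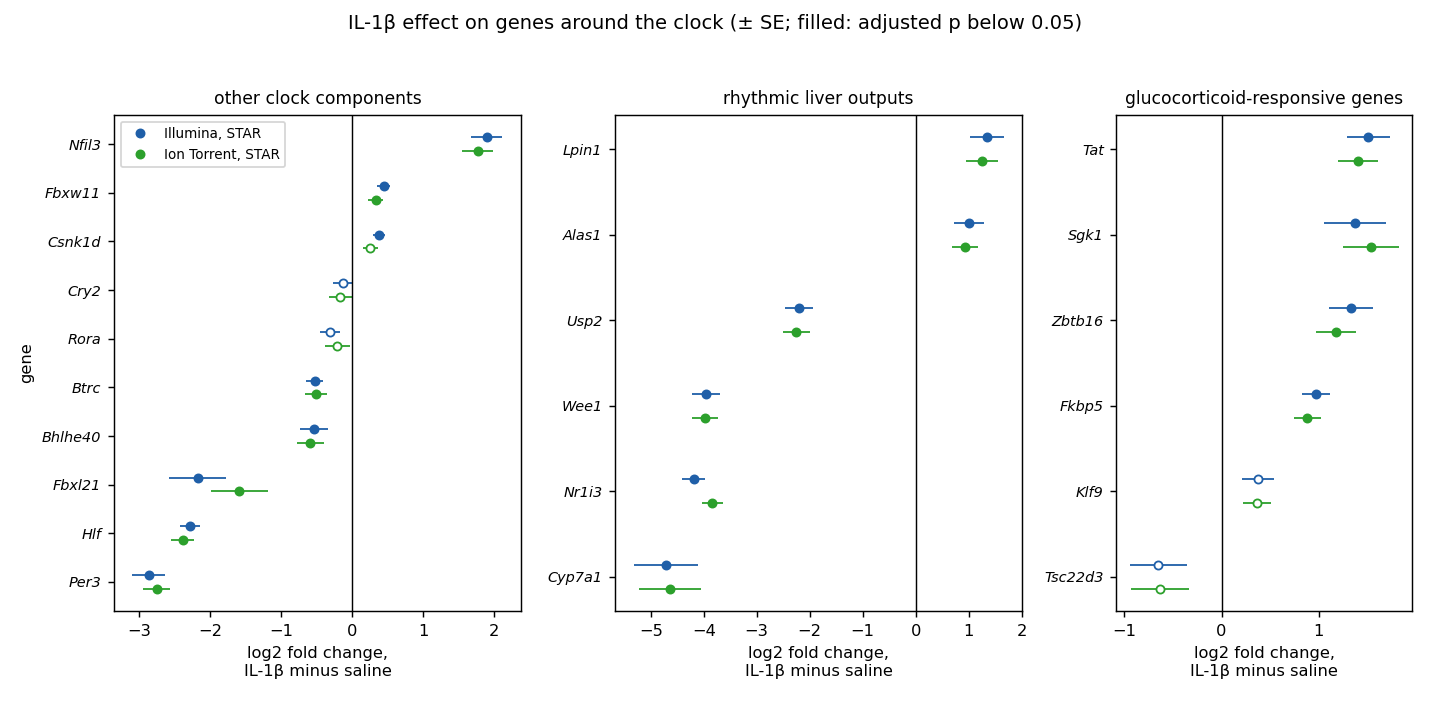
Log2 fold change of IL-1β against saline (x axis, ± SE) for the other clock components, rhythmic liver outputs and glucocorticoid-responsive genes named in the text (y axis), in blue for the Illumina and green for the Ion Torrent STAR table, with filled symbols for an edgeR adjusted p below 0.05. Per3, Hlf, Cyp7a1, Nr1i3 and Wee1 lie far below 0 and Nfil3 far above it on both platforms.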

How the data were processed

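Liver poly-A RNA of 10 mice was sequenced on both platforms. The authors aligned the reads to mm9 (per the submitters' processing notes STAR 2.5.1b, Bowtie2 2.2.9, and GSNAP), removed rRNA and mitochondrial reads with PORT, brought the libraries within a table to a common number by random sampling and deposited count values per Ensembl gene, all whole numbers. The tables do not state whether an Illumina count is a read or a pair. Since each table was normalized on its own, comparisons of treatment stay inside 1 table. Re-sampled totals, not raw depth, set the precision.

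A gene was tested if 5 of the 10 libraries of any table held 5 or more reads (15578 genes). Counts were fitted with edgeR 4.0.16 (R 4.3.3), quasi-likelihood, TMM, and Benjamini-Hochberg adjustment. Alternatives were DESeq2 1.42.0, limma 3.58.1 (voom), the rank test of the study, other normalizations and filters, a log2 threshold, the other tables and leaving out each mouse, and, chosen after seeing the data, the Ion Torrent tables without UNT_9584. Gene pairs were compared as log2 ratios with 1 read added to each gene, by exact permutation tests (Python 3.11.15, numpy 2.4.6, scipy 1.17.1). Reads per kilobase used the exonic length of the Ensembl gene models on NCBIM37, scaled to a TMM library size of 1000000. The fits were also run on simulated counts that gave every gene the same variation, so those runs do not cover the more variable members. Mouse numbers in the labels pair the libraries of a liver across platforms. The deviations of paired libraries correlated at 0.246 to 0.706 across genes, above every other mouse of the same treatment (at most 0.258 for the other 9 mice). No per-sample column was left out.

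The members and lists were chosen with earlier results of these data known. The named genes are the 10 members, further clock components that were called, up to 4 rises and 4 falls among rhythmic outputs, 6 glucocorticoid-responsive genes, genes sharing exonic bases with a member, and the 3 nearest genes of Arntl, Nr1d1 and Dbp. Cry2, Rora, Rorb, Klf9 and Tsc22d3 were added after their values were seen. A few genes that the rule names are counted but not reported here. Of the 10 members, 9 matched the RefSeq promoter table.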

Additional observations from a re-analysis of the deposited data

Results flagged for a closer look

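Single mice stood apart from the other 4 of their group by Dixon's test in 10 of 120 groups (10 genes, 2 treatments and 6 tables), of which 2 were in the Illumina STAR table. Chance flags about 1 in 20 groups, and the 6 tables share mice. Treated mouse ILB_9577 had the highest Dbp in every table, with 422, 449 and 451 reads in the Illumina tables (STAR, GSNAP and STAR + Bowtie2) and 480, 566 and 590 in the Ion Torrent tables. Treated mouse ILB_9579 had the highest Cry1, with 125 reads in the Illumina STAR and 133 in the Illumina GSNAP table. Untreated mouse UNT_9576 had the highest Arntl in the Illumina GSNAP table, with 52 reads. Untreated mouse UNT_9575 had 2 Npas2 reads in the Illumina STAR + Bowtie2 table where the other 4 had 1, a difference of 1 read.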

How the results depend on the processing

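The 9 clock genes fitted kept the direction of their log2 fold change under every alternative run in the Illumina data and in the Ion Torrent tables, except Nr1d1, which was 0.099 (edgeR adjusted p = 0.881) without UNT_9580 and -0.53 to 0.099 without any 1 mouse. The calls of Arntl, Per1, Per2, Dbp and Tef held under all alternatives, and Cry1 and Clock lay near the threshold: 5 members were called with limma-voom, with the rank test and with a log2 threshold of 1, 6 without TMM or with size factors, and 7 with DESeq2 (edgeR: 6), with a filter on 1 table or with no filter. Of the further clock components, 5 in place of 9 were called with the log2 threshold of 1, which keeps only larger changes. The rank test called 2142 genes higher and 3790 lower over all genes, against 3541 and 3575 with edgeR.

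The Ion Torrent minus Illumina term changed sign for Arntl (-0.22, and 0.019 with GSNAP and 0.15 with STAR + Bowtie2), Per2 (0.060, and -0.0058 with GSNAP) and Tef (0.012, with -0.011 and -0.012 for these aligners and -0.00082 to 0.076 without any 1 mouse). That of Clock was -0.16 to 0.032 without any 1 mouse. Without the replicate block for the mouse, none of the 9 members was called, as with it, and Nr1d1 was -0.46. The pair ratios of Npas2 to Clock (-0.048 to 0.55) and Nr1d1 to Nr1d2 (-0.35 to 0.26) ranged across 0 as single mice were left out, and neither was called. The cause of these changes was not tested. Npas2, with at most 7 reads in an Illumina library, and Fbxl21, with 1 to 4 reads in treated mice of the Illumina STAR table, are limited by depth. No paired analysis of the treatments was possible because treated and untreated mice share no numbers. Leaving out UNT_9584 from the Ion Torrent tables was chosen after seeing the data and changed no member's call.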
